A study of Mus musculus with 18 samples.

Results

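The comparison described here is that of testis RNA from Zfp541 knockout (KO) and heterozygous (Het) mice at postnatal day 14 (P14), 6 of the 18 libraries of the study. The libraries were taken by their labels and deposited values, 3 for each genotype. The Het animals were Zfp541+/- and the KO animals Zfp541-/-, and all were male C57BL/6J mice. Both groups therefore carried at least 1 mutated Zfp541 allele, and no library of wild-type testis is among the groups. The labels give the material as testicular cells and the RNA as total RNA of testes from which poly(A) RNA was isolated, so each library mixes germ cells with the somatic cells of the tubules and the interstitium. The design text calls the 3 libraries of a group biological replicates without saying that they came from separate mice, and p-values here measure the spread between these libraries. The study asked which genes were expressed differently between the genotypes in testis at P14 and at P18 and in spermatocytes taken at the later age.

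ZFP541 is a zinc-finger protein with ELM2 and SANT domains that is made in spermatocytes and is known to associate with KCTD19 and with histone deacetylases HDAC1 and HDAC2. In the first wave of spermatogenesis of the mouse, germ cells advance together, and at P14 the most advanced cells are spermatocytes in early pachytene, the stage at which homologous chromosomes are fully synapsed. From pachytene onward spermatocytes switch on a broad programme that includes pachytene piRNA factors and many genes for the acrosome and the flagellum, whose products are mostly used later, in spermatids. Genes of this programme are therefore only beginning to be transcribed in P14 testis.

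Values were deposited as RPKM, reads scaled to exon length in kilobases and to the depth of the library, and the depth read back from the smallest steps of these values was 17.96 to 21.12 M reads (M, megareads) per library. A single read on an exon length of 1 kb was worth 0.0473 to 0.0557 RPKM. Levels below are RPKM after a rescaling by at most 2% and are given per library or as mean ± SD (n = 3 libraries). Differences are KO minus Het on the log2(RPKM + 0.5) scale with their standard error, a scale that understates the change of genes at low values. Among markers of the tissue, Sertoli (Sox9 39.5 to 49.4), spermatogonial (Dmrt1 57.4 to 72.4) and spermatocyte transcripts (Sycp3 136 to 242) were present in all 6 libraries, while the spermatid transcripts Prm1, Prm2, Tnp1, Tnp2 and Acrv1 stayed at or below 0.895. The first principal component held 33.9% of the variance and separated the genotypes, with Het replicate 2 (-4.99) and KO replicate 3 (4.72) nearest to each other and the other 4 libraries at -23.8, -15.0, 18.8 and 20.4. Results that turn on those libraries are marked as such.

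Transcript of the targeted gene was lower in KO but not lost. Zfp541 (chromosome 7, 16061814 to 16096334, plus strand, GRCm38) measured 7.58, 9.15 and 9.18 RPKM in Het replicates 1, 2 and 3 and 3.18, 3.96 and 4.99 in KO replicates 1, 2 and 3. No KO library reached a Het library. The log2 difference was -1.02 ± 0.15, which did not pass the test over all genes (adjusted p = 0.0811, limma with Benjamini-Hochberg adjustment). Which part of the gene the mutation removes is not given in the sources used here, so the reads that remained check the labels only in part. In RNA of a whole tissue, fewer cells of a type and less RNA per cell cannot be told apart, here and in all that follows.

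Among genes for proteins known to bind ZFP541, Kctd19 was the only one of 6 with an unadjusted p under 0.05. Kctd19, which encodes the BTB-domain partner of ZFP541, measured 16.1, 13.3 and 17.7 RPKM in Het and 6.13, 7.64 and 11.1 in KO. The groups did not overlap, and the highest KO value was again that of replicate 3. Its difference was -0.92 ± 0.21 (adjusted p = 0.231, limma). The deacetylase genes Hdac1 (means of 27.6 RPKM in both groups) and Hdac2 (33.7 ± 2.01 and 32.2 ± 1.21) overlapped between genotypes. Dnttip1 and Mideas, listed as Elmsan1, encode parts of deacetylase complexes and differed by 0.07 and 0.03. Trerf1, whose product is related to MIDEAS, measured 3.63, 3.65 and 3.88 in Het and 4.28, 4.02 and 4.28 in KO, a difference of 0.15 ± 0.07 in the other direction (adjusted p = 0.561, limma).

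At the adjusted threshold of the main fit, the first genotype difference across genes was narrow and nearly all in 1 direction. Of 49395 gene symbols, 17708 reached 1 RPKM in at least 3 libraries and were tested. Of these, 27 fell in KO (0.152% of the genes tested) and 2 rose (0.0113%) at an adjusted p under 0.05. A gene that reached this filter through its Het libraries alone could only be lower, which held for 569 of the genes tested. Called genes such as Crisp2 and Cetn1 are among these 569, and the number of called genes among them is not given here. Of the 10321 genes at a mean of at least 5 RPKM over the 6 libraries, 4 fell and 0 rose at that threshold. At an unadjusted p under 0.05, 1056 genes were lower (5.96%) and 574 higher (3.24%). Every KO library lay below every Het library for 1468 genes (8.29%) and above for 1370 (7.74%). The median difference over all genes tested was 0.01, and 46.1% of them lay below 0. A count model run on reads recovered from the RPKM steps (voom) called 296 genes lower and 6 higher, and 19 of the 22 called genes that it could test were among its 296. No gene was called in either direction once replicate 1 or 3 of Het, or replicate 1 or 2 of KO, was left out (1352, 1350, 1301 and 1233 genes at an unadjusted p under 0.05), whereas 44 genes were lower without Het replicate 2 and 71 without KO replicate 3.

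The 27 genes that fell were at low to moderate levels already in Het. Their Het means ran from 1.52 to 23.3 RPKM with a median of 4.19, 24 of them were under 10, and in KO 19 had a mean under 1. Their differences ran from -1.26 to -2.97 with a median of -1.92, and the smallest difference called in either direction was 1.15 in size, beside a median standard error of 0.09 over all genes tested. Het replicate 2 was the lowest Het library for all 27, and KO replicate 3 was the highest KO library for 24. The 26 with a position in the annotation lay on 13 chromosomes, none of them on the X chromosome, and 18 of the 27 were protein-coding.

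Of the lists of sperm tail genes described below, the list of cilia and flagella associated proteins held 3 of the called genes, the dynein list 1 and the sheath list 1; Lrrc46, Morn5 and Cetn1 are described beside them. Zmynd10 encodes a cytoplasmic factor that helps to preassemble dynein arms. It measured 6.86, 3.81 and 5.10 RPKM in Het and 0.673, 0.442 and 0.739 in KO, so that the lowest Het library stood above every KO library, and it fell by 2.34 on the log2 scale (SE 0.21, adjusted p = 0.0264, limma). Tekt1, the gene of a tektin that lines axonemal microtubules, measured 3.78, 2.76 and 2.90 in Het and 0.383, 0.677 and 0.550 in KO and fell by 1.81 (adjusted p = 0.0264, limma). Cfap206, a radial spoke protein gene, fell from 2.55 ± 0.791 to 0.363 ± 0.0488, a difference of -1.79 ± 0.21. Meig1, whose product is needed to build the flagellum, had the highest Het level of the 27, with 23.8, 19.8 and 26.3 RPKM in Het and 9.67, 8.36 and 10.1 in KO. It fell by 1.26, the smallest fall of the group, and the lowest Het library was still 1.96 times the highest KO library. Lrrc46, needed for the sperm flagellum, and Morn5, a testis gene with MORN repeats, fell by 1.40 and 1.31. The outer dense fibre gene Odf4 fell from 2.41 ± 0.768 to 0.192 ± 0.117, and the centrin retrogene Cetn1 from 3.22 ± 0.711 to 0.435 ± 0.0646.

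The list of acrosome and sperm surface genes also held 3 of the called genes. Crisp2, which encodes a cysteine-rich secretory protein of the acrosome and tail, measured 4.96, 3.20 and 5.07 RPKM in Het and 0.209, 0.315 and 0.431 in KO. The difference of -2.57 ± 0.19 (adjusted p = 0.0264, limma) was the largest among protein-coding genes called. Dkkl1, the gene of an acrosomal Dickkopf-like protein, measured 7.24, 4.13 and 5.70 in Het against 0.879, 0.830 and 1.06 in KO and fell by 2.09. Atp8b3, a phospholipid flippase gene of the acrosomal membrane, fell by 1.79 with an adjusted p of 0.0423 (limma). In each of these genes the groups were separated by a gap that was wider than the range of the KO libraries.

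Piwil1 was the one piRNA pathway gene called. It encodes MIWI, the PIWI protein that binds pachytene piRNAs and that appears at the pachytene stage. Piwil1 measured 16.0, 10.2 and 14.3 RPKM in Het and 1.77, 2.02 and 3.17 in KO, and fell by 2.32 (SE 0.23, adjusted p = 0.0377, limma). All 3 KO libraries retained a measurable level, highest in replicate 3. Among the other protein-coding genes called, Spata4 fell from 7.30 ± 1.86 to 0.909 ± 0.365 and Fbp1, the gluconeogenic enzyme fructose-1,6-bisphosphatase, from 1.82 ± 0.587 to 0.110 ± 0.0952. Chst1, a carbohydrate sulfotransferase gene, fell by 1.33 and the small membrane protein gene Smim24 by 1.55. The uncharacterised genes 4922502D21Rik and 1700010I14Rik fell from 5.51 ± 0.866 to 1.14 ± 0.442 and from 6.43 ± 1.55 to 1.71 ± 0.167. The plot of levels by library shows 8 of these genes beside Zfp541, Kctd19, Ldhc and Rfx2.

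**Figure D1:**
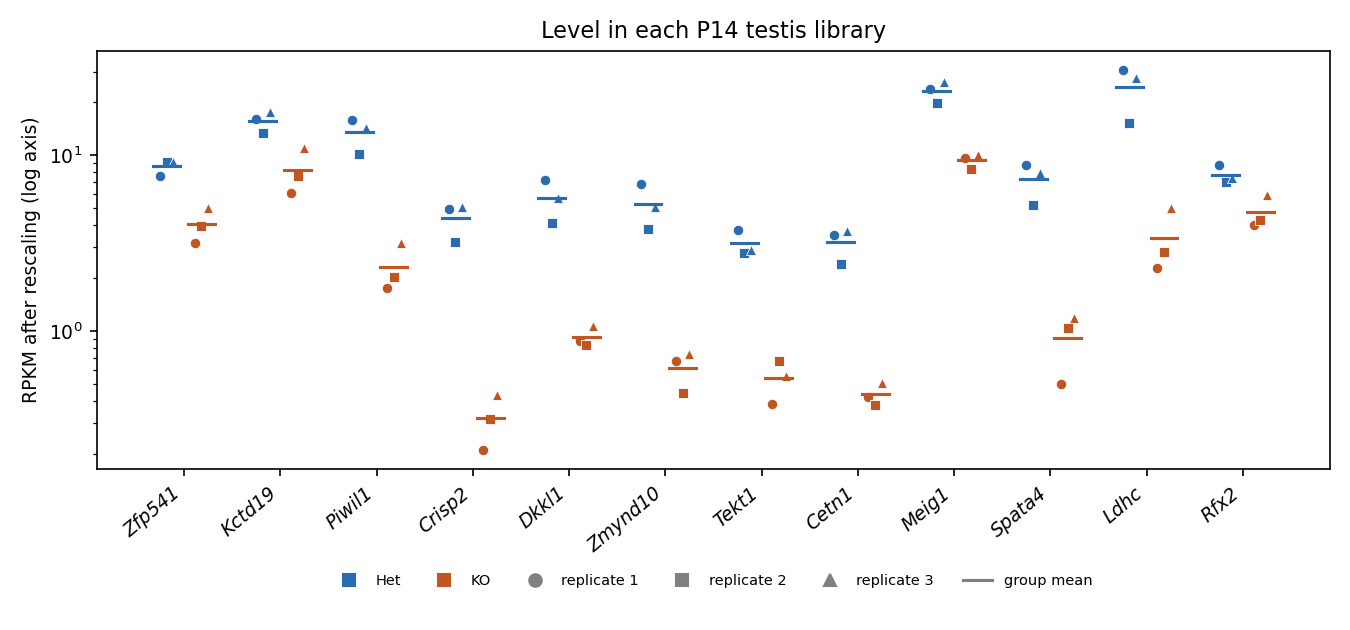
Level of 12 genes in each P14 testis library (RPKM after rescaling, log axis). Blue symbols are the 3 Het and orange symbols the 3 KO libraries, with a shape for each replicate and a line at the group mean; no KO symbol reaches a Het symbol of the same gene, Het replicate 2 is the lowest Het symbol in most genes and KO replicate 3 the highest KO symbol in most.

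The other 9 genes that fell were noncoding or unplaced transcripts. 1700097M23Rik fell most of all 27, from 6.16 ± 2.52 to 0.310 ± 0.125 RPKM, a difference of -2.97, and Gm14244 followed at -2.90 (7.05 ± 2.10 to 0.520 ± 0.361). Gm15841 (chromosome 1, 74902371 to 74907653) is annotated as antisense and lies inside Cfap65 (74902071 to 74935599), a flagellar gene that itself differed by -1.87 ± 0.24 (adjusted p = 0.0538, limma). No strand setting is given for the counting, so reads of Gm15841 and Cfap65 cannot be told apart. Gm13817, Rbakdn, Gm21269, 4930405N21Rik, 1700006J14Rik and Gm42914 fell by 1.43 to 2.20.

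Both genes that rose rested on a handful of reads. Gm23017, a small nucleolar RNA of 72 bases, had 3, 2 and 3 reads in Het and 7 in each KO library (1.97 ± 0.343 and 4.94 ± 0.258 RPKM). Gm37338, an annotated interval of 127 bases, is listed at 0 in all Het libraries and had 4, 3 and 4 reads in KO. With so few reads the counting error of a single library is large. No protein-coding gene passed the test in the upward direction.

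Start regions of the called genes were read for short sequence motifs of factors known in spermatocytes, because the genes moved together. RefSeq start windows (GRCm38.p6, 250 bases before to 50 after a start) matched 19 of the 27 genes by symbol. The MYB core CAGTTG, on either strand, stood in 7 of 19 (36.8%), against 12.2% of the 10370 tested genes with a window. The RFX half-site GTTGCC stood in 6 of 19 (31.6%), against 14.8%. The full cyclic AMP response element TGACGTCA stood in 0 of 19, against 3.5%. CAGTTG and GTTGCC share the letters GTTG and can overlap. A match is a description of the letters and not a binding site, and no test was made of these shares. The stretches of 120 bases before the start are given for 4 genes in which a motif falls there, on the gene's own strand, 5′ to 3′, with the motifs in capitals. Piwil1 (chr5:128736126-128736245, plus strand) holds the MYB core, Fbp1 (chr13:62888283-62888402, minus strand) the RFX half-site in reverse, the upstream start of Tekt1 (chr11:72361883-72362002, minus strand) that half-site in both directions, and 1700010I14Rik (chr17:8988213-8988332, plus strand) an overlapping pair in reverse.
Piwil1: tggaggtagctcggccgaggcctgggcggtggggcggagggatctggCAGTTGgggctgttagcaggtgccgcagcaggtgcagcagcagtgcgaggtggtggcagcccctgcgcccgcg
Fbp1: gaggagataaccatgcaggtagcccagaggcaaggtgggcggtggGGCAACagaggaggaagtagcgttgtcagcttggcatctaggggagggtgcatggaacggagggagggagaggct
Tekt1: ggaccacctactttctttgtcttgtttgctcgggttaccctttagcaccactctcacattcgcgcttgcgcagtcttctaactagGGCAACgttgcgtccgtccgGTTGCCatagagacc
1700010I14Rik: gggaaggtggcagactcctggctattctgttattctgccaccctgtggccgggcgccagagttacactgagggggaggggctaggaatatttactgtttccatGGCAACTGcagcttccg

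Below the single-gene threshold, many members of several gene lists lay lower in KO. A set of 28 gene lists held 697 entries, of which 687 are in the table and 540 reached the filter. Many spermatid genes stayed below it, and a gene that passes only through its Het libraries has to be lower in KO, which was so for 569 of all genes tested. Counts over a list are therefore given as descriptions, beside those of all genes, and again for members at a mean of at least 5 RPKM over the 6 libraries. In that range 10321 genes were tested, with 8.20% of them below in every KO library and 5.68% lower at an unadjusted p under 0.05.

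Of 12 transcription factor genes of pachytene spermatocytes, 9 were tested, with a median difference of -0.32, and none passed the test. Rfx2, whose product drives flagellar genes, measured 8.75, 7.05 and 7.43 RPKM in Het and 4.02, 4.29 and 5.93 in KO (-0.66 ± 0.15, adjusted p = 0.196, limma). Mybl1, the gene of A-MYB, an activator of pachytene piRNA loci, measured 14.1, 13.2 and 18.3 in Het and 10.5, 12.7 and 12.4 in KO, a difference of -0.33 ± 0.13. The groups of both genes did not overlap, by a narrow margin in Mybl1. Tcfl5, a helix-loop-helix factor gene of spermatocytes, measured 15.9 ± 0.673 and 12.7 ± 1.13, and Crem, a regulator of spermatid genes, 3.39 ± 0.593 and 2.20 ± 0.176. Taf7l, Nr6a1 and the broadly expressed Rfx1 lay at or above 0. At a mean of at least 5 RPKM, 3 of 5 members lay lower in every KO library. Without KO replicate 1 the median of the 9 was -0.18, and without Het replicate 3 it was -0.20.

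Most tested piRNA pathway genes lay below 0. Of 26 members tested, 21 were below 0, the median was -0.24, and every KO library was below every Het library for 15 (57.7%, against 8.29% of all genes tested). At an unadjusted p under 0.05, 14 were lower and none higher. None of these members passed the filter through Het alone, and at a mean of at least 5 RPKM the count was 15 of 23. Tdrd1, a tudor scaffold of the germ granule, measured 24.7, 19.8 and 24.1 RPKM in Het and 15.8, 14.7 and 16.7 in KO, a difference of -0.52 ± 0.09 (adjusted p = 0.112, limma). Tdrd5, another tudor protein gene, differed by -0.60 ± 0.10, and the helicase gene Ddx25 by -0.46 ± 0.08 (adjusted p = 0.101 and 0.114, limma). The abundant germ-cell helicase gene Ddx4, named here after its values were seen, measured 84.9 ± 11.1 and 62.3 ± 5.18. Piwil1 was the only member past the adjusted threshold.

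Translational regulators of spermatocytes were lower in a smaller share of members. Of 26 RNA-binding genes tested, 7 lay lower in every KO library (26.9%), 1 higher, and the median was -0.12. Ybx2, the gene of the germ-cell Y-box protein MSY2 that stores mRNA, measured 66.6, 53.7 and 59.2 RPKM in Het and 26.7, 31.2 and 42.6 in KO (-0.85 ± 0.17, adjusted p = 0.171, limma). It was the largest difference in this list, with no overlap and with KO replicate 3 again nearest to Het. Ybx3 (25.3 ± 2.00 and 19.9 ± 0.766), the DAZ-family gene Boll (14.5 ± 2.27 and 10.5 ± 1.21) and Cpeb2 (9.64 ± 0.938 and 7.52 ± 0.860) lay lower by 0.34 to 0.44. The count was 7 of 25 at a mean of at least 5 RPKM. Without Het replicate 3 the median of the list was -0.06.

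Genes of the axoneme lay lower in KO in most members tested. Of 41 genes for dynein arms and their assembly, 26 were tested, 9 of them through Het alone, with a median of -0.45 and 17 lower in every KO library (65.4%). Beside Zmynd10, Dnaaf1, a dynein assembly factor, measured 5.96, 5.58 and 6.59 RPKM in Het and 3.57, 3.78 and 4.09 in KO (-0.60 ± 0.08, adjusted p = 0.0742, limma). The 2 groups were each tight, so that Dnaaf1 separated as cleanly as genes with larger differences. Dynlrb2, a dynein light chain gene, measured 2.07 ± 0.733 and 0.429 ± 0.120, and Dnaaf4, listed as Dyx1c1, 4.41 ± 0.837 and 2.29 ± 0.262. At a mean of at least 5 RPKM only 5 members remained, with a median of -0.15 and 2 lower in every KO library.

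Cilia and flagella associated proteins, radial spoke proteins and tektins gave 29 tested of 60, 8 through Het alone, with a median of -0.48. Of the 29, 23 lay lower in every KO library (79.3%), and 23 were lower at an unadjusted p under 0.05, none higher. All 9 members at a mean of at least 5 RPKM lay lower in every KO library. Besides the called Tekt1, Cfap206 and Meig1, the radial spoke gene Rsph1, the most abundant member and named after its values were seen, measured 84.7, 69.5 and 85.6 RPKM in Het and 34.0, 33.4 and 49.3 in KO. The groups of Rsph1 were nearest at Het replicate 2 and KO replicate 3, and its difference was -1.05 ± 0.17 (adjusted p = 0.101, limma).

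Intraflagellar transport and BBSome genes, which carry cargo along cilia in many cell types, lay lower by less but evenly. All 33 were tested and none passed the filter through Het alone. The median was -0.23, 32 lay below 0, and 20 were lower in every KO library (60.6%), with 13 of 22 at a mean of at least 5 RPKM. The range ran from -0.49 to 0.00. Ift172, a peripheral subunit of the transport complex, measured 9.52, 8.24 and 9.42 RPKM in Het and 6.23, 6.32 and 7.06 in KO (-0.44 ± 0.08, adjusted p = 0.112, limma). Wdr35, which encodes IFT121, differed by -0.49 ± 0.09, Ift22 by -0.41 ± 0.10 and the BBSome gene Bbs5 by -0.36 ± 0.08. In each of these 4 genes the KO libraries lay below the Het libraries, and none of the 33 reached the adjusted threshold.

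Genes for the acrosome and sperm surface gave 17 tested of 40, with a median of -0.51 and 11 lower in every KO library (64.7%), 6 of the 17 through Het alone. At a mean of at least 5 RPKM only 5 members remained, with a median of -0.09 and 2 lower in every KO library. Adam5, a sperm-surface metalloprotease-like gene, measured 4.23, 1.94 and 3.05 RPKM in Het and 0.366, 0.552 and 0.788 in KO (-1.71 ± 0.26, adjusted p = 0.0852, limma). The chaperone gene Clgn, needed to fold sperm-surface ADAM proteins and named after its values were seen, measured 20.7 ± 4.80 and 8.86 ± 2.24. Of genes for the fibrous sheath, dense fibres and spermatid nucleus, 7 of 29 were tested. Besides Odf4, Fsip2 of the fibrous sheath measured 1.53 ± 0.309 and 0.509 ± 0.141, Fsip1 2.72 ± 0.0265 and 2.05 ± 0.221, and Odf2 12.4 ± 0.884 and 10.3 ± 0.531. In the acrosome list 14 of 17 members lay below 0 and in the sheath list 6 of 7, against 46.1% of all genes tested. Those that passed the filter through Het alone, 6 in the acrosome and 2 in the sheath list, had to lie below 0. Only 1 sheath member had a mean of at least 5 RPKM.

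Metabolic isozymes of germ cells had the lowest median of all 28 lists, -0.74 over 15 tested of 22, 2 of them through Het alone. Of the 15, 12 lay lower in every KO library (80.0%). At a mean of at least 5 RPKM, 8 of 9 did. Ldhc, the testis lactate dehydrogenase, measured 30.7, 15.2 and 27.5 RPKM in Het and 2.27, 2.81 and 5.01 in KO. The lowest Het library was 3.04 times the highest KO library, and the difference of -2.70 ± 0.34 was larger in size than that of any called protein-coding gene, but its adjusted p was 0.0705 (limma). Cox8c, a testis subunit of cytochrome c oxidase, measured 24.5, 16.2 and 23.2 in Het and 5.82, 6.48 and 9.04 in KO (-1.52 ± 0.21, adjusted p = 0.0756, limma). The glucose transporter gene Slc2a3 measured 7.99 ± 1.83 and 3.53 ± 0.217, the glycerol kinase retrogene Gk2 2.54 ± 0.385 and 0.868 ± 0.264, and the pyruvate dehydrogenase retrogene Pdha2 10.6 ± 1.80 and 5.15 ± 0.916. Hexokinase gene Hk1 and Gapdhs lay at -0.06 and 0.13.

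Autosomal retrogenes of X-linked genes, which supply functions lost when the X chromosome is silenced in pachytene, gave 11 tested of 16, 2 through Het alone. All 11 lay below 0, with a median of -0.26, and 8 were lower in every KO library (72.7%), with 6 of 8 at a mean of at least 5 RPKM. Cetn1 was called. Rpl10l, the retrogene of a ribosomal protein, measured 35.2, 31.2 and 31.0 RPKM in Het and 20.9, 23.6 and 26.5 in KO (-0.45 ± 0.10, adjusted p = 0.160, limma). Gk2, Pdha2 and Slc25a31 stand in both this and the metabolic list.

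**Figure D2:**
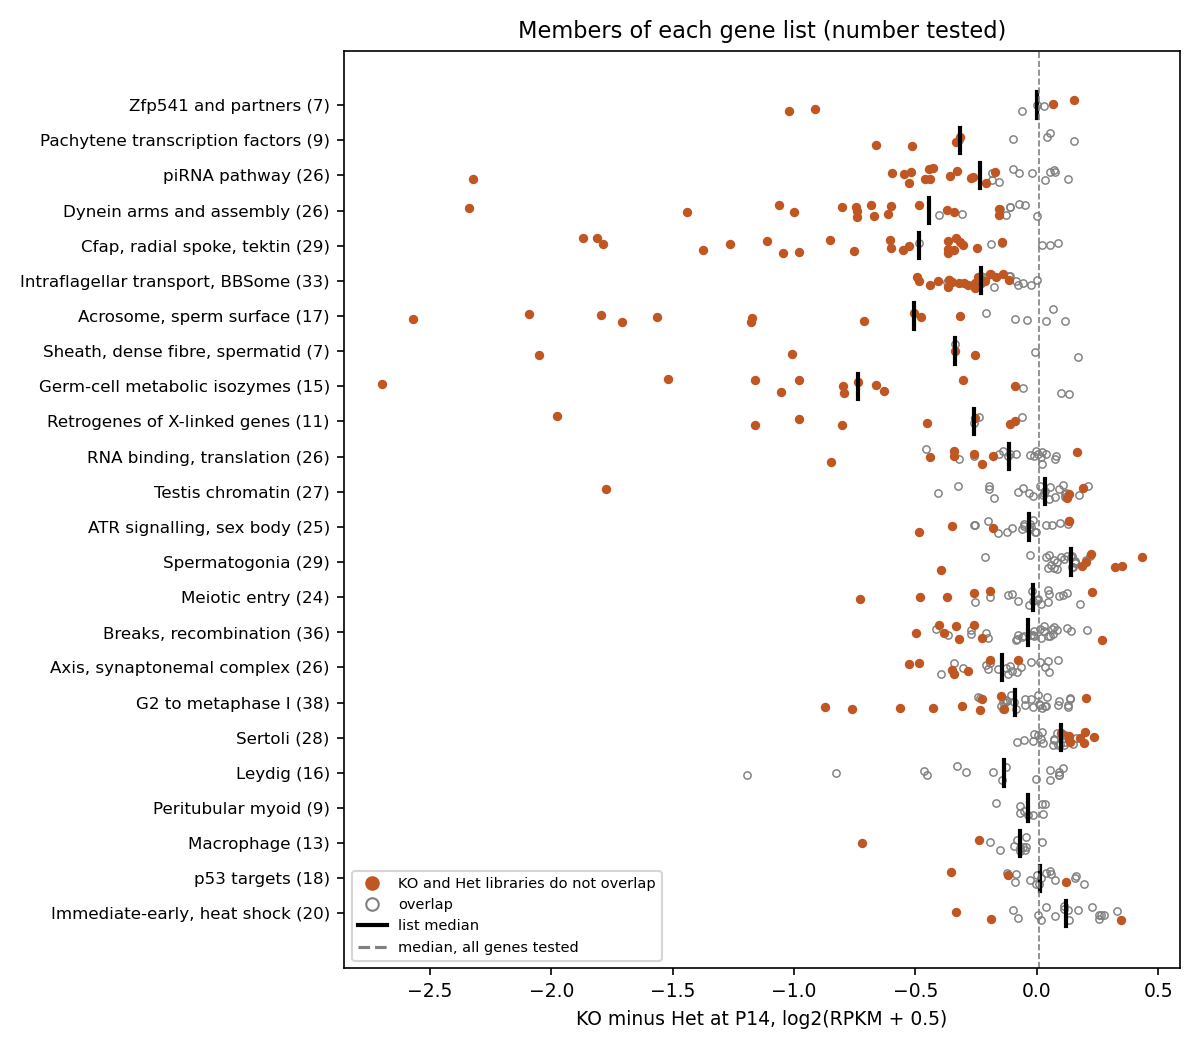
KO minus Het difference at P14 on the log2(RPKM + 0.5) scale for each tested member of 24 gene lists. Filled orange points are genes whose KO and Het libraries do not overlap, open points overlap, black bars are list medians and the dashed line is the median of all genes tested (0.01); lists of axoneme, acrosome and metabolic genes reach furthest to the left, and spermatogonial and Sertoli lists lie to the right of the line.

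Genes of earlier meiotic functions lay lower in a smaller share of members than those of the axoneme. Of 36 genes for breaks and recombination, 7 lay lower in every KO library (19.4%) and the median was -0.04, with 6 of 28 at a mean of at least 5 RPKM. Cntd1, a cyclin-like gene needed for crossover maturation, measured 22.3 ± 1.18 RPKM in Het and 15.6 ± 1.47 in KO (-0.50 ± 0.08, adjusted p = 0.0843, limma). The strand-invasion cofactor gene Psmc3ip differed by -0.38 ± 0.11, Msh4 by -0.41 ± 0.13 and Mlh3 by -0.23 ± 0.08, both mismatch-repair homologues of crossover sites. Of 26 axis and synaptonemal complex genes, 7 lay lower in every KO library (26.9%), with a median of -0.14, and 6 of 25 did at a mean of at least 5 RPKM. Below 0 lay 21 of the 26. Kash5, listed as Ccdc155, which links telomeres to the cytoskeleton, measured 12.4 ± 1.00 and 8.48 ± 0.959 (-0.53 ± 0.10, adjusted p = 0.115, limma), and the telomere gene Terb2 4.71 ± 0.280 and 3.78 ± 0.227. The axis gene Hormad1 measured 92.2, 81.5 and 117 in Het and 58.2, 69.1 and 79.2 in KO. Sycp3, the most abundant axis gene and named after its values were seen, measured 189, 192 and 242 in Het and 136, 169 and 189 in KO, so that its groups met. The axis median was -0.07 without KO replicate 1 and -0.23 without KO replicate 3.

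Meiotic entry genes had a median near 0, with a larger share lower in every KO library than among all genes. The median of 24 was -0.02. In every KO library 5 lay lower (20.8%, against 8.29% of all genes tested) and 1 higher (4.17%, against 7.74%). At a mean of at least 5 RPKM, 4 of 22 lay lower (18.2%, against 8.20%) and 1 higher (4.55%, against 8.57%). Gml, a GPI-anchored protein gene of meiotic germ cells, measured 29.5, 25.7 and 39.1 RPKM in Het and 15.6, 15.9 and 25.4 in KO (-0.73 ± 0.23, adjusted p = 0.411, limma), with the lowest Het and the highest KO library 0.277 RPKM apart. Stk31 differed by -0.37 ± 0.10, Nsun7 by -0.48 ± 0.17 and Ugt8a by 0.23 ± 0.09. Among 38 genes of the G2 to metaphase I cell cycle, 9 lay lower in every KO library (23.7%) and the median was -0.09, with 7 of 32 at a mean of at least 5 RPKM. Hspa2, the spermatocyte chaperone needed to activate CDK1, measured 68.1 ± 7.34 in Het and 37.6 ± 9.10 in KO (-0.87 ± 0.17, adjusted p = 0.160, limma). No KO library reached a Het library. The difference of Hspa2 was larger in size than those of Cdk1 (-0.22 ± 0.06), the kinase gene Nek2 (-0.31 ± 0.08) and Cks2 (-0.43 ± 0.08), a small subunit of cyclin-dependent kinases.

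Chromatin regulators differed at single genes, and most genes of the sex body list lay below 0. The median of 27 testis chromatin genes was 0.03. Morc2b, a MORC-family gene active in meiosis, measured 4.97, 3.17 and 5.62 RPKM in Het and 0.700, 0.715 and 1.60 in KO (-1.78 ± 0.28, adjusted p = 0.101, limma) and was the only one of the 27 lower in every KO library. The bromodomain gene Brdt (18.1 ± 1.70 and 13.7 ± 2.95) overlapped, and the histone methyltransferase genes Ehmt1 and Ehmt2 lay higher by 0.13 and 0.19 in every KO library. The 25 genes of ATR signalling and the sex body had a median of -0.03. Of these, 19 lay below 0 (76%, against 46.1% of all genes tested). At a mean of at least 5 RPKM, 15 of 20 did (75%, against 44.8%). In every KO library 3 of the 25 lay lower (12%) and 2 higher (8%). Hormad2, needed for ATR recruitment to unsynapsed axes, differed by -0.35 ± 0.10, and Mdc1, which spreads the silencing signal along the X chromosome, by -0.26 ± 0.11 with overlap. Ube2t, a Fanconi pathway gene, measured 9.48 ± 1.04 and 8.18 ± 0.753. Over the 790 X-linked genes tested, the median was 0.03. In every KO library 2.15% of them lay lower and 9.11% higher, against 8.29% and 7.74% of all genes tested.

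Most spermatogonial and Sertoli genes lay above 0 by small amounts. Of 29 spermatogonial genes, 26 lay above 0, with a median of 0.14, and 6 were higher in every KO library (20.7%, against 7.74% of all genes tested). At a mean of at least 5 RPKM, 2 of 19 did (10.5%), against 8.57% of all genes in that range. Sox3, a factor of differentiating spermatogonia, measured 12.4, 11.2 and 8.71 RPKM in Het and 14.4, 13.8 and 13.0 in KO (0.35 ± 0.12, adjusted p = 0.460, limma). Rhox10 differed by 0.43 ± 0.13 and the retinoic acid receptor gene Rarg by 0.22 ± 0.08. Id4, a gene of spermatogonial stem cells, went the other way, with 11.2, 9.29 and 10.8 in Het and 7.86, 7.50 and 8.03 in KO (-0.39 ± 0.08, adjusted p = 0.141, limma). Of 28 Sertoli genes, 24 lay above 0, 8 were higher in every KO library (28.6%) and the median was 0.10, or 0.06 without Het replicate 3. The count was 8 of 26 (30.8%) at a mean of at least 5 RPKM. Sox9, a sex-determining factor that Sertoli cells keep, measured 41.2, 43.0 and 39.5 in Het and 49.4, 47.3 and 45.6 in KO. Clu, Dhh and Gata4 lay higher by 0.14 to 0.19. The summed level of the 28 Sertoli markers was 2797 to 3011 RPKM in Het and 2897 to 3254 in KO, and its part in the results for other genes was not tested.

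Markers of other cell types varied between libraries and overlapped between genotypes in their sums. The sum of 16 Leydig markers was 128 to 179 RPKM in Het and 96.8 to 164 in KO. The list's median was -0.14, and 0.06 without KO replicate 3. The steroidogenic genes Cyp17a1 (13.6, 2.25 and 9.04 in Het, 4.90, 4.11 and 0.751 in KO) and Star (11.6, 4.31 and 13.4 in Het, 5.36, 5.53 and 3.61 in KO) varied within each genotype and overlapped between them, as did Fdx1, which encodes an electron carrier of steroid synthesis. The sum of 16 macrophage markers was 51.0 to 75.8 in Het and 43.9 to 72.8 in KO. The receptor genes Fcgr3 (2.71 ± 0.600 and 1.48 ± 0.550) and Adgre1 (1.14 ± 0.0204 and 0.912 ± 0.315) of this list lay lower in every KO library, with replicate 3 lowest. The list's median changed from -0.07 to 0.09 without KO replicate 3. The groups of Adgre1 were only 0.002 RPKM apart. In P18 testis Fcgr3 differed by -1.83 and was the 1 member called lower, while 7 of the list were called higher. On the log2 scale, spermatocytes minus whole testis in the Het libraries of P18 was 0.32 for Fcgr3. For the members Cd68 and Mrc1 it was -0.36 and -3.07. Which cells the Fcgr3 reads came from was not tested. Sums of myoid markers (287 to 299 in Het, 260 to 310 in KO), endothelial markers (17.8 to 19.1 and 16.0 to 20.6) and 8 erythroid markers (122 to 543 and 205 to 429) overlapped. The sum of 10 epididymal markers, of which 1 was at 0 in all libraries, was 2.04 to 2.10 in Het and 1.13 to 9.63 in KO. The highest sum was that of KO replicate 2, where Spink8 was at 4.01 and Crisp1 at 2.73, while Crisp1 was at 0 in the other 5 libraries. No list named in this paragraph had a gene called at P14, and the part of these cells in other results was not tested.

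Genes of p53 signalling and of the stress response did not pass the test. Of 18 p53 target genes tested, the median was 0.01, and 2 lay lower in every KO library (11.1%, against 8.29% of all genes tested). They were the apoptosis gene Pmaip1 (4.53 ± 0.649 and 3.41 ± 0.130) and the p53 regulator gene Mdm2 (18.6 ± 1.25 and 17.1 ± 0.556). For Mdm2 the lowest Het and the highest KO library were 0.076 RPKM apart. Of 20 immediate-early and heat-shock genes, 16 lay above 0 with a median of 0.12, and at a mean of at least 5 RPKM 10 of 13 did with a median of 0.17. In every KO library 1 of the 20 was higher and 2 were lower (5% and 10%, against 7.74% and 8.29% of all genes tested). Ier2 measured 7.85, 8.56 and 7.60 RPKM in Het and 10.1, 10.5 and 10.3 in KO (0.35 ± 0.06, adjusted p = 0.108, limma). The chaperone genes Hsp90aa1 and Dnajb1 went the other way, by -0.33 ± 0.09 and -0.19 ± 0.06. The 13 mitochondrial messenger RNAs had a median of -0.02 and none was separated between groups.

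The medians of these lists ordered the 6 libraries in a similar way from list to list. For the dynein list, deviations from each gene's mean were 0.34, 0.06 and 0.36 in Het replicates 1, 2 and 3 and -0.34, -0.23 and -0.08 in the KO replicates, and for the metabolic list 0.45, 0.15 and 0.49 against -0.43, -0.42 and -0.21. Het replicate 2 was thus the Het library nearest to KO and KO replicate 3 the KO library nearest to Het in both. Break and axis genes kept the order of the KO replicates, with KO replicate 1 at -0.20 in each, and Het replicate 3 was highest at 0.14 and 0.16. Their KO replicate 3, at 0.05 and 0.04, lay inside the range of Het, unlike in the dynein and metabolic lists. Whether the mice of a group were at the same point of the first wave is not given in the sources used here, and the part of such a difference in the results was not tested.

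**Figure D3:**
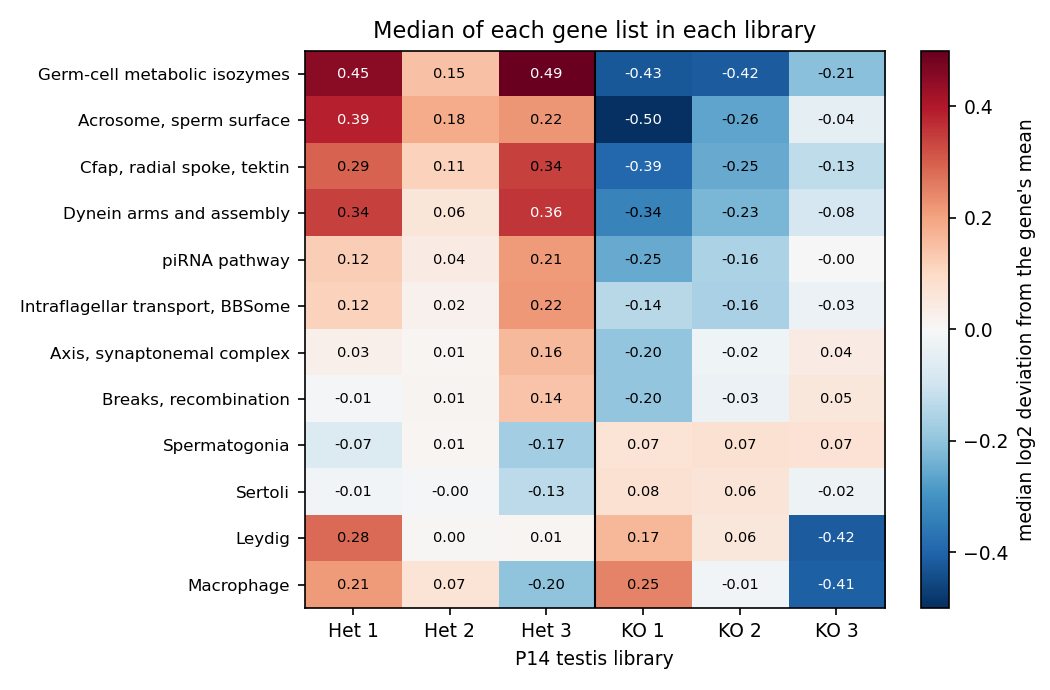
Median log2 deviation of 12 gene lists in each P14 testis library, each gene centred on its mean over the 6 libraries. Colours and printed values show late lists (metabolic, acrosome, axoneme) above 0 in all Het and below 0 in all KO libraries, weakest in Het replicate 2 and KO replicate 3, and Leydig and macrophage lists low in KO replicate 3 alone among KO libraries by more than 0.4.

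Outside the lists, the protein-coding genes with the smallest unadjusted p at 5 RPKM or more and no overlap were taken by rule, 10 in each direction, and none passed the adjusted threshold. Among those lower, Ldhal6b, a lactate dehydrogenase-like retrogene, measured 8.41, 5.14 and 8.97 RPKM in Het and 1.55, 0.977 and 2.00 in KO, and the zinc-finger gene Zfp820 8.61 ± 2.73 in Het against 2.21 ± 0.220 in KO. The lowest Het library was 2.57 times the highest KO library for Ldhal6b and 2.38 times for Zfp820. 1700006A11Rik had the largest difference of the 10 (-2.82 ± 0.35, adjusted p = 0.0672, limma). Cdc42ep3, an effector of the GTPase CDC42, differed by -0.75 ± 0.10, Spa17, a sperm surface and sheath protein gene, by -0.70 ± 0.11, and Cox6b2, a testis subunit of cytochrome c oxidase, by -0.80 ± 0.12. Tkfc, Lrrc61, 1700019A02Rik and 1700029P11Rik lay lower by 0.45 to 1.16.

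The 10 higher genes differed by less, apart from 1. Gm17622, with an exon length of 45 bases and 1, 1 and 2 reads in Het against 5, 6 and 5 in KO, measured 1.57 ± 0.628 and 6.04 ± 0.852 RPKM. Tnfrsf12a, the receptor gene of the cytokine TWEAK, measured 10.8, 11.2 and 10.9 in Het and 16.2, 13.8 and 15.5 in KO (0.44 ± 0.07, adjusted p = 0.0811, limma). The Het libraries of Tnfrsf12a spanned 0.417 RPKM, and each KO library was at least 2.56 above them. Pth1r, the parathyroid hormone receptor gene, differed by 0.37 ± 0.07, the nuclear import receptor gene Ipo13 by 0.38 ± 0.08 and Gm16181 by 0.35 ± 0.08. Fbxo17, Lrrc75a, the sterol regulator gene Insig1, the arginine deiminase gene Padi2 and the X-linked prolyl isomerase gene Pin4 lay higher by 0.19 to 0.25.

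The P14 differences were then set beside those of P18 testis, which share no library with them. Of the 27 genes that fell at P14, 25 were tested at P18, and all 25 fell there as well (17.5% of all genes tested there fell), against 15.4% of the 15338 genes tested at both ages. Their median difference at P18 was -3.20, and their median Het level 61.2 FPKM. On the scale with 0.5 added, the difference at P14 was smaller in size than that at P18 in 24 of these 25, with Gm13817 as the exception. That scale shrinks falls to low values most. Fbp1, with KO means of 0.110 at P14 and 3.29 at P18, differed by -1.91 and -3.83 on it, and by -4.16 at P14 in the count model (voom). Meig1, at higher levels, differed at P14 by -1.26 on it and by -1.32 in the count model. Genes that were called lower at P18 by 3 or more on the log2 scale numbered 54, and at P14 they had a median of -1.48, with 92.6% lower in every KO library. Members that passed the P14 filter through Het alone, such as Crisp2 and Cetn1, had to be lower in KO. Their number in this and the following groups is not given here, so these medians and shares are descriptions. The 131 genes lower at P18 by 2 to 3 had a P14 median of -0.68 and 71.0% lower in every KO library, the 504 genes lower by 1 to 2 had -0.27 and 52.6%, and the 1674 genes lower by less than 1 had -0.09 and 26.5%. Among 12047 genes not called at P18 the median was 0.02 and 3.85% were lower in every KO library. The 928 genes called higher at P18 (985 of all genes tested there, 5.25%) had a P14 median of 0.07, with 18.8% higher in every KO library against 8.42% of those not called. Across the 15338 genes, which are not independent replicates, the differences at the ages had a Pearson r of 0.54 and a Spearman rho of 0.44.

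**Figure D4:**
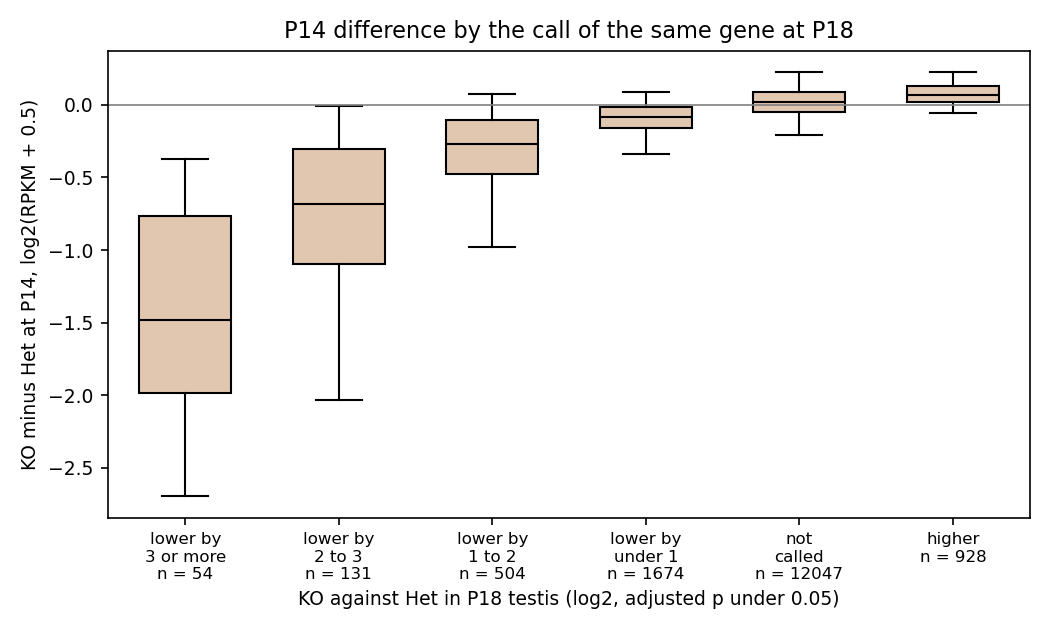
KO minus Het difference at P14 on the log2(RPKM + 0.5) scale for genes grouped by their call in P18 testis. Boxes span the quartiles with the median as a line and whiskers reach the 5th and 95th percentiles; the median goes from -1.48 in genes lower by 3 or more at P18 to 0.02 in genes not called and 0.07 in genes called higher.

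A test of the difference between ages asked which genes departed from this pattern. The tables of the ages were normalized separately, as RPKM and FPKM, so only KO minus Het differences taken within each age entered it. Over 12 testis libraries and 19300 genes, the KO minus Het difference was above that of P18 at P14 for 1337 genes (6.93%) and below it for 72 (0.373%). Of the 27 called genes, 12 had a difference at P18 that was larger in size by this test, among them Cetn1, where P14 minus P18 was 2.66, Atp8b3 at 2.46 and Cfap206 at 2.34. With 0.5 added, a gene at a low Het level can fall only so far at P14. For such genes the test cannot tell a smaller fall from a lower level. In the count model (voom) Fbp1 and Rbakdn differed by -4.16 and -4.21 at P14, beside -3.83 and -4.74 at P18 with 0.5 added. Of the 12, those the count model could test, apart from Fbp1, were less negative at P14 than at P18. Cetn1 and Atp8b3 could not be tested in that model. For Piwil1 the difference between ages was 0.26 and for Zmynd10 0.72 (adjusted p = 0.731 and 0.267, limma), so that neither was shown to change further. Ldhc had -2.70 at P14 and -3.08 at P18, Kctd19 -0.92 and -1.56, and Zfp541 -1.02 and -1.26, and none of these passed the test between ages. Dnaaf1 differed by -0.60 at P14 and by -3.10 at P18 (adjusted p = 0.00486, limma).

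The place of these transcripts was read from the Het libraries of P18, where spermatocytes (RPKM) were set beside whole testis (FPKM), tables normalized separately, so that these differences between fractions are descriptions with no test. Of 25 called genes with a value, 24 were above 0 in spermatocytes minus testis, with a median of 0.64 against -0.08 over all genes tested at P14. Across the 14857 genes with a value, which are not independent replicates, the relation to the P14 difference was weak. The Pearson r was -0.12 and the Spearman rho -0.16. Among genes at 0 to 1 on that scale, 910 of 6497 lay lower in every P14 KO library, and among the 1229 genes below -2, those far lower in spermatocytes, 2.03% did, with 9.93% higher. Of the 356 genes at 1 to 2 on that scale, 9.83% lay lower and 13.5% higher in every KO library, and of the 15 above 2 none lay lower or higher in every one. Level was then taken as the mean RPKM over the Het and KO libraries of P14 together, which a fall in KO lowers. On that mean, 11 of the 27 falls were among the 2989 genes under 2 RPKM and 12 among the 4398 genes of 2 to 5 RPKM. Another 4 were among the 7134 genes of 5 to 20 RPKM, beside 0.152% of all genes tested. The low levels hold genes that passed the filter through Het alone and could only be lower, such as Cetn1 (mean 1.83) and Crisp2 (mean 2.36). None of the 2766 genes at 20 to 100 RPKM, nor of the 421 above, passed in either direction. By Het level alone, the called gene Meig1 was above 20 RPKM (Het mean 23.3, mean over both genotypes 16.3).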

How the data were processed

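RNA-seq of poly(A) RNA was deposited for 6 groups of 3 libraries, of which the 6 P14 testis libraries carry the results here, and P18 libraries stand beside them. The authors deposited RPKM per gene symbol for P14 testis and P18 spermatocytes, per the file headers. The authors deposited FPKM for P18 testis, per the file headers. Per the submitters' processing notes the build was GRCm38, and the software included the aligner STAR 2.6.1a, the read counter featureCounts, edgeR 3.28.1 and CASAVA 1.9; the order of use and a strand setting are not given in the sources used here. Each library is a table of its own, and groups were taken from the labels.

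Read totals of 17.96 to 21.12 M per P14 library were computed from the steps between low values, using exon lengths of the reference annotation. Of low values (up to 50 reads) 92.5% to 92.8% came out whole within 0.01 reads. No pair of libraries of a group agreed within counting noise (mean chi-square per gene of 2.61 or more between P14 replicates).

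Since the values are RPKM, limma 3.58.1 (R 4.3.3, trended and robust) was fitted to log2(value / TMM factor + 0.5) for genes at 1 or more in at least 3 libraries. TMM, with trims of 30% and 5%, was coded in R, other steps used Python 3.11.15, numpy 2.4.6, pandas 2.3.3 and matplotlib 3.10.9, and the fit was tested on simulated data. Tests were two-sided, with Benjamini-Hochberg adjustment over all genes tested and a threshold of 0.05. Named genes were ZFP541 and its partners, all called genes, the 4 members of each list with the smallest unadjusted p, and 10 other protein-coding genes in each direction; exceptions are stated. The lists and members were chosen with earlier results of these data known. Alternatives were the replicate block, 2 other scalings, pseudocounts of 0.1 and 1, no filter and a stricter filter, limma without trend, each library left out, and voom on recovered reads. The labels do not say whether P14 replicate numbers pair the libraries, and the main fit took them as unpaired.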

Additional observations from a re-analysis of the deposited data

Results flagged for a closer look

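The KO minus Het difference was tested between ages over 12 testis libraries with limma, and 1337 genes lay higher and 72 lower at P14 than at P18. Each gene of the report that passed is given by its P14 minus P18 difference on the log2 scale. With 0.5 added, that scale limits how far a gene at a low Het level can fall at P14. For such genes, among them Fbp1 and Rbakdn, these values alone do not show that the fall was smaller at P14. Among called genes this was 2.66 for Cetn1, 2.46 for Atp8b3, 2.34 for Cfap206, 2.05 for Spata4, 1.85 for Fbp1, 1.82 for Lrrc46, 1.55 for 1700010I14Rik, 1.47 for Meig1, 1.45 for Tekt1, 1.44 for Dkkl1 and 1.38 for Smim24. The noncoding gene Rbakdn had 2.55, and Gm37338, the short interval that rose at P14, 2.05.

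Among genes that were not called at P14, Dnaaf1 of dynein assembly had 2.50, the transport gene Ift172 1.01, the dense fibre gene Odf2 1.11 and the sperm surface gene Spa17 0.78. The metabolic genes Gk2, Slc2a3, Ldhal6b and Cox6b2 had 2.73, 2.20, 1.94 and 0.79. The RNA-binding gene Ybx3 had 1.95, the piRNA pathway genes Ddx25 and Tdrd5 1.14 and 0.82, and the factor gene Tcfl5 1.11. Nek2 had 0.92, Dnajb1 0.69, Cdc42ep3 1.66, Lrrc61 0.99 and 1700029P11Rik 1.81. For all of these except Gm37338 the difference at P14, with 0.5 added, was less negative than that at P18. Gm17622, with at most 6 reads in any P14 library, had 3.01.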

How the results depend on the processing

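At P14, 27 genes fell and 2 rose in KO. The counts of falls and rises were 29 and 3 on values as deposited, 27 and 2 with median-of-ratios scaling, 17 and 1 with a pseudocount of 0.1, 24 and 3 with a pseudocount of 1, 6 and 3 with no filter, 11 and 1 with the stricter filter, 25 and 2 without the trend, and 296 and 6 with voom on recovered reads. With the replicate block, which takes same-numbered libraries as pairs, they were 3 and 0, with 1 of the 3 among the 27. The labels do not say whether the numbers are pairs. Correlations of same-numbered libraries were 0.08421, 0.08244 and 0.1055, each the highest for its libraries, a hint from the data only. Leaving out 1 library gave 0 to 71 falls and 0 to 3 rises. The cause of these changes was not tested, apart from the stricter filter, under which only 11 of the 27 could be tested. Between ages, 1337 genes had a higher and 72 a lower difference at P14; these were 713 and 39 with the replicate block, and 278 for the lower direction on values as deposited. Leaving out 1 library gave 513 to 2549 and 16 to 329, both highest without P18 Het replicate 3. The differences of Hdac1 and Elmsan1, which overlapped between genotypes, changed sign, from -0.048 to 0.023 and from -0.051 to 0.091 over libraries left out. Of the alternative values of list medians, 406 moved by less than the spread between libraries and 13 by more. Depth limits genes at low level: 1 read on 1 kb was worth about 0.05 RPKM.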
